A study of Mus musculus with 4 samples.

Results

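Nuclei with the transcripts of granule-type neurons were looked for in single-nucleus libraries made from cerebral cortex of mice called GCLC-KO. A nucleus was called granule-type when at least 2 of the 5 genes Gabra6, Zic1, Grm4, Tll1 and Il16 had a UMI (unique molecular identifier, counted as 1 RNA molecule), among them Gabra6 or Zic1, and when Gad1, Mog, Pdgfra and Csf1r, which mark inhibitory neurons, oligodendrocytes, their precursors and microglia, had 0 UMIs. The rule was applied to the 30515 nuclei in which no more than 7000 genes were detected and mitochondrial genes gave no more than 1% of UMIs, out of 30784 barcodes. It found 153 nuclei (0.501%). The levels of these 9 genes follow from the rule and are given only as a description.

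GCLC-KO mice carry a floxed Gclc allele of C57BL/6NTac origin and a CaMKII-Cre transgene, which is active in forebrain excitatory neurons, so that these neurons lose the catalytic subunit of the enzyme that starts glutathione synthesis. All 4 libraries came from untreated GCLC-KO mice: 3M-1 and 3M-2 at 3 months of age, and 6M-1 and 6M-2 at 6 months. Cortical regions rich in rod-shaped microglia were dissected, and DAPI-positive nuclei were sorted. No wild-type library was analysed here, and the number 1 or 2 is also the batch that the labels name.

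Granule neurons of the cerebellum are small, densely packed glutamatergic neurons that receive mossy fibre input and send parallel fibres to Purkinje cells. They are the best known site of Gabra6, the alpha6 subunit of GABA-A receptors, which joins the delta subunit (Gabrd) in extrasynaptic receptors for tonic inhibition, and of Grin2c, an NMDA receptor subunit that replaces Grin2b as the cells mature. Zic1 is a zinc finger transcription factor of the dorsal hindbrain and cerebellum, and Grm4 is a presynaptic metabotropic glutamate receptor of parallel fibres.

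Nearly all granule-type nuclei came from 1 library. At 3 months there were 4 in 3M-1 and 135 in 3M-2, and at 6 months 4 in 6M-1 and 10 in 6M-2, so that 88.2% came from 3M-2. They made up 0.0588% (95% Wilson interval 0.0229 to 0.151) of the nuclei of 3M-1 and 1.54% (1.31 to 1.82) of those of 3M-2. In 6M-1 the share was 0.0493% (0.0192 to 0.127), and 6M-2 had 0.146% (0.0793 to 0.268). Where 4 values follow each other below without a name, they are in this order of libraries. The share was thus high in 3M-2 alone, far from the other library of the same age, and the ages overlapped. The mean share was 0.801% ± 1.05 (SD, n = 2) at 3 months and 0.0976% ± 0.0683 (SD, n = 2) at 6 months. The difference of -0.703 percentage points had p = 0.667 in an exact two-sided permutation test, in which 2 libraries against 2 cannot reach 0.05. Without 3M-2 the difference turned to 0.0388 points. At each age the library of batch 2 had the higher share, 3M-2 and 6M-2. The part of the batch, the mouse or the dissection in this count was not tested.

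The granule-type nuclei were shallower than cortical neurons in 3 of the 4 libraries. Their median depth in the 4 libraries was 2442.5, 1857, 11488.5 and 3458.5 UMIs per nucleus. Cortical excitatory nuclei, defined by at least 2 UMIs of the vesicular glutamate transporter gene Slc17a7 and 0 UMIs of the 9 genes of the rule, had medians of 12556.5, 8860, 10737 and 11308.5, so that only the 4 nuclei of 6M-1 were deeper. In total the granule-type nuclei held 9901, 423497, 46073 and 88130 UMIs, so that 3 UMIs, the fewest that could be told from none, stood for 303, 7.08, 65.1 and 34.0 CPM (UMIs of a gene per 1000000 UMIs of the class). All intervals cover counting error only. Summed over the 6 pairs of libraries, 93 barcodes were shared, of which 1 was a granule-type nucleus.

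**Figure D1:**
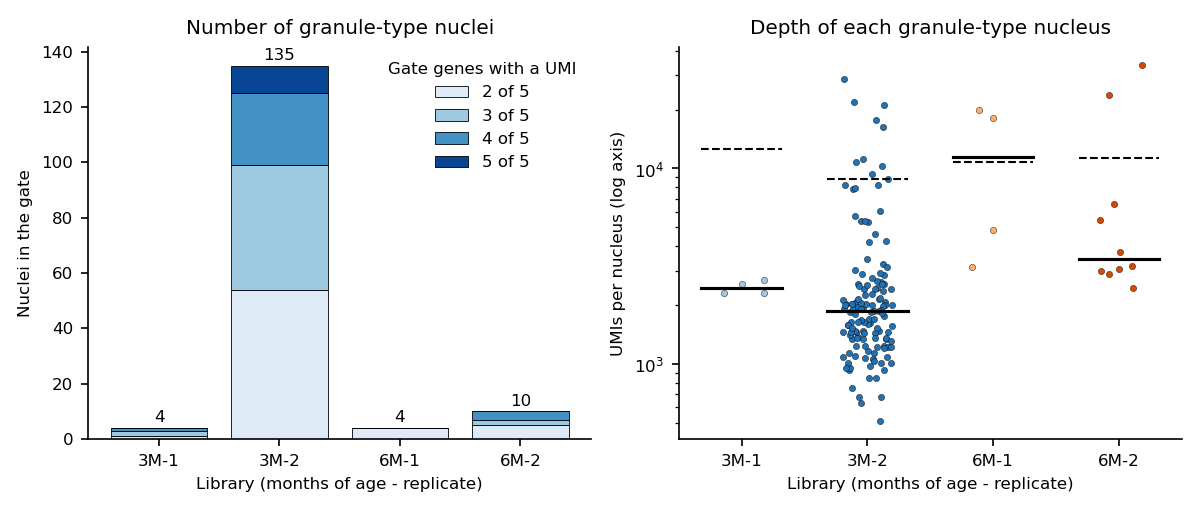
Granule-type nuclei in each library. Left, their number, with the shading for how many of the 5 genes of the rule had a UMI. Right, UMIs per nucleus on a log axis, 1 point a nucleus, with the median of granule-type (solid line) and cortical excitatory nuclei (dashed line). The 135 nuclei of 3M-2 had a median of 1857 UMIs, with a tail that reached 28854.

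The 5 genes of the rule were unevenly shared out. In 3M-2, Gabra6 had a UMI in 115 of 135 nuclei, Zic1 in 81, Il16 in 68, Grm4 in 67 and Tll1 in 66. Exactly 2 of the 5 genes were found in 54 of these nuclei, 3 in 45, 4 in 26 and all 5 in 10. In 3M-1 all 4 nuclei held Gabra6, and in 6M-2 7 of 10 did. In 6M-1 none of the 4 did, and these nuclei had passed through Zic1 with Grm4 or Tll1. The level of Gabra6 in the granule-type nuclei of the 4 libraries was 606, 494, 0 and 204 CPM. Just outside the rule in 3M-2, 19 nuclei had Gabra6 and 28 had Zic1 as their only gene of the 5. Grm4 and Tll1 were the least selective of the 5, with a UMI in 8.89% and 5.54% of the other nuclei of 3M-2, against 0.638% for Gabra6.

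Gabra6 (ENSMUSG00000020428, chromosome 11, 42306437 to 42321072 on the minus strand of GRCm38) lies in a cluster of GABA-A receptor genes. Nuclear factor I (NFI) proteins are known to act on its promoter in granule neurons. The promoter windows of Gabra6 (chr11:42321023-42321322, minus strand) and Cbln3 (chr14:55884207-55884506, minus strand), from 250 bases before to 50 after the RefSeq start in GRCm38.p6, are shown because Gabra6 leads the rule and Cbln3, which the rule did not use, was nearly silent in cortical neurons. Capitals mark the NFI motif TTGGC, searched on both strands and here read as GCCAA.
Gabra6: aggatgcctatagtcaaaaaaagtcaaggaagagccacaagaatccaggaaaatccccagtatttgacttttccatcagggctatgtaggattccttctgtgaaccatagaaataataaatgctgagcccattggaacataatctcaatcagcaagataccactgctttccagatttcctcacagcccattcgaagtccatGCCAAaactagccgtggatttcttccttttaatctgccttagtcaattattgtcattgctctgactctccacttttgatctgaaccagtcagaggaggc
Cbln3: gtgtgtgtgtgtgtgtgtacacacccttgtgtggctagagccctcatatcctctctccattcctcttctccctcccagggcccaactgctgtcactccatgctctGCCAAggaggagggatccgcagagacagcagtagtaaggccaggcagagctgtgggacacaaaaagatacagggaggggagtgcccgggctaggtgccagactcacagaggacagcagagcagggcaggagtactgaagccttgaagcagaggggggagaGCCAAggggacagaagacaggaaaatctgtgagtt
The motif was found 1 time in the Gabra6 window and 2 times in the Cbln3 window. Among windows not shown, it was found 2 times in that of Zic1 and 0 times in those of Fat2, Grin2c, Tll1 and Zic4. Of 32851 windows of this length, 46.7% held it, and 0.0365% held the paired site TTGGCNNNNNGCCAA, which was in none of the windows named here. Nfia, an NFI gene, was at 307 CPM in the granule-type nuclei of 3M-2 and 131 CPM in excitatory nuclei, and at 431 and 222 CPM in 6M-2, a difference that did not pass the test described below (adjusted p = 0.0744).

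Other genes of cerebellar granule neurons were counted in the same nuclei. A set of 8 was taken after their values had been seen, so that their direction follows from the choice and gives no independent support for the label: Fat2, Cbln3, Chn2, Grin2c, Pax6, Neurod1, Etv1 and Svep1. At least 3 of these 8 had a UMI in 3 of 4 and 77 of 135 (57.0%) granule-type nuclei at 3 months and in 1 of 4 and 7 of 10 at 6 months. Among excitatory nuclei, which were deeper except in 6M-1, this held for 0.442%, 0.449%, 0.724% and 0.558%. The 7 nuclei of 6M-2 were its 7 with Gabra6. In 3M-2 this held for 67 of the 115 nuclei with Gabra6 and 10 of the 20 without.

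Some members went against the label, among them all 4 of 6M-1 and 3 of the 10 of 6M-2. For these the name granule-type means only that the rule was met. The 4 nuclei of 6M-1 and the 3 of 6M-2 without Gabra6 had 56 and 23 UMIs of Bnc2 and 39 and 30 of Foxp2, both transcription factor genes, against 1 UMI of Bnc2 in all 135 nuclei of 3M-2, where 10 nuclei held 46 UMIs of Foxp2. Of the 8 genes, Cbln3, Grin2c and Pax6 had no UMI in these 7 nuclei. Etv1 had 7 UMIs in those of 6M-1 and 4 in those of 6M-2, Chn2 had 7 and 0, Fat2 1 and 0, and Neurod1 0 and 1. Bnc2 was found in 3 of the 4 and 2 of the 3. In 3M-2, 1 nucleus of 17779 UMIs had 45 UMIs of Car8, 20 of Pcp2 and 117 of Itpr1, which are genes of Purkinje cells, and 0 of Gabra6 and Fat2. That nucleus also held 41 of the 127 UMIs of Ebf1 in the granule-type nuclei of 3M-2.

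To compare shares of nuclei at 1 depth, each nucleus of 3M-2 was thinned to 1000 UMIs, which left out 12 of 135 granule-type, 3 of 2452 excitatory, 70 of 627 oligodendrocyte and 45 of 252 microglial nuclei. Fat2, which encodes a large protocadherin of parallel fibres, then had a UMI in 23.6% (16.9 to 31.8) of granule-type nuclei, 0.0817% of excitatory nuclei, 0.359% of oligodendrocytes and 0.966% of microglia. The shares without thinning were 28.1%, 0.204%, 0.319% and 1.59%. Etv1, a transcription factor gene of maturing granule neurons, reached 39.8% (31.6 to 48.7), against 4.25%, 6.28% and 8.70% in the 3 other classes. Chn2, which encodes a Rac GTPase-activating protein, reached 61.0% (52.1 to 69.1) and 5.10% in excitatory nuclei, but also 56.0% in microglia, so that it is not particular to granule-type nuclei. Camk2a, a kinase gene of forebrain excitatory neurons, had a UMI in 12.2% (7.53 to 19.1) of granule-type nuclei and 53.1% (51.1 to 55.1) of excitatory nuclei. It was found in 8.21% (5.19 to 12.8) of microglia and 7.36% (5.47 to 9.83) of oligodendrocytes, whose intervals overlap that of granule-type nuclei.

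**Figure D2:**
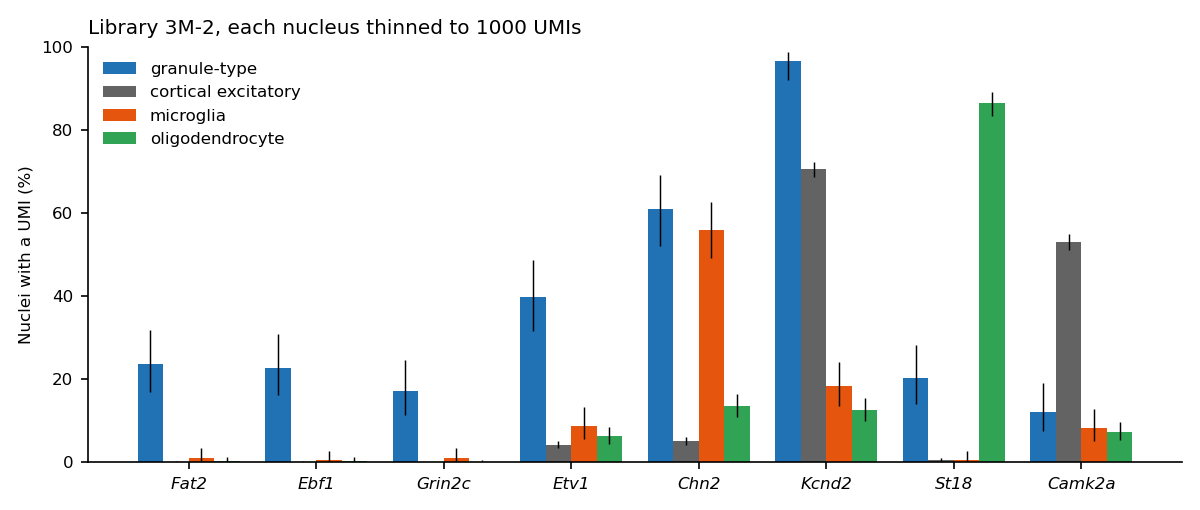
Share of nuclei of 3M-2 with at least 1 UMI of each gene after thinning to 1000 UMIs, in granule-type, cortical excitatory, microglial and oligodendrocyte nuclei. Bars are shares in percent and lines 95% Wilson intervals. Fat2, Ebf1 and Grin2c stood above 17% in granule-type nuclei and below 1% in the other classes shown, while Camk2a was highest in excitatory nuclei.

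UMIs were then summed per library and class and compared between granule-type and cortical excitatory nuclei of the same library. The quasi-likelihood test of edgeR was used, with p-values adjusted over 15941 genes by the Benjamini-Hochberg method. The 2 libraries with at least 10 granule-type nuclei, 3M-2 and 6M-2, were used, which left 1 residual degree of freedom. In 6M-2 there were just 10, and the 3 without Gabra6, which went against the label, held 44289 of its 88130 UMIs. Of all genes tested, 3.86% passed at an adjusted p of 0.05 (615 genes), 1.46% as higher (233) and 2.40% as lower (382) in granule-type nuclei, and the median log2 fold change of all genes was -0.11. The balance of directions turned with DESeq2, which called 127 genes higher and 38 lower, and with all 4 libraries, where 238 were higher and 130 lower. Each library is labelled as a mouse and replicate. With 1 residual degree of freedom, the p-values rest mostly on a spread pooled over genes. A gene's own spread between the 2 libraries hardly enters them, and they do not measure the spread between mice.

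The 10 named genes with the highest fold changes were nearly silent in cortical neurons. They were Gm42912, a long noncoding RNA, Zic4, Cnpy1, Crtam, Cbln3, Grin2c, Fat2, Bnc2, Ebf1 and Svep1. None of them would have passed the filter on low counts without the granule-type sums. Such genes could hardly come out lower, so their direction gives no support for the label. Cbln3, a secreted protein of granule neurons that pairs with Cbln1, had 29 UMIs (68.5 CPM) in the granule-type nuclei of 3M-2 and 4 (45.4 CPM) in 6M-2, but 2 and 1 UMIs in the summed excitatory nuclei. The ratio was 824 (95% counting interval 208 to 7127) in 3M-2, and the log2 fold change over both libraries 9.32 ± 1.41 (SE). Fat2 was at 132 CPM in 3M-2 and 45.4 CPM in 6M-2, against 0.208 and 0.226 CPM in excitatory nuclei, with a log2 fold change of 8.41 ± 0.82 (SE). Zic4 (log2 fold change 10.51 ± 1.54, SE) had 21 UMIs in 3M-2 and 6 in 6M-2, of which 5 were in 2 nuclei without Gabra6. It is a neighbour of Zic1 on chromosome 9 whose gene model overlaps it on the opposite strand, so that their reads can be told apart only if strand was used in counting. Ebf1 (6.74 ± 0.45, SE) rested in part on the nucleus with Purkinje cell genes. It was at 300 CPM in 3M-2 and 56.7 CPM in 6M-2. Nuclei outside the rule with Zic1 as their only gene of the 5 had 470 and 499 CPM, so Ebf1 is not particular to granule-type nuclei. Bnc2 rested on 2 nuclei of 6M-2 without Gabra6.

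At the other end were Il1rapl2, Gm34544, Rmst, Efcab6, Gm15398, Zfp804b, Col23a1, Scube1, Stum and A830036E02Rik. Il1rapl2, which encodes a synaptic adhesion protein, was at 54.3 CPM in 3M-2 and 11.3 CPM in 6M-2, against 504 and 564 CPM in excitatory nuclei, with a log2 fold change of -3.87 ± 0.37 (SE). Zfp804b was at 80.3 and 22.7 CPM, against 364 and 449 CPM, with a log2 fold change of -2.89 ± 0.35 (SE). In the 4 nuclei of 6M-1, which were not in the test, Il1rapl2 was at 868 CPM, with all 40 UMIs in 1 nucleus of 19965 UMIs. With 3M-2 left out and the other 3 libraries used, Il1rapl2 no longer passed and Col23a1 turned to a log2 fold change of 0.31, while Zfp804b still passed.

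The list of cerebellar granule genes held 36 genes, of which 27 were tested. Slc17a7 was left out because it defines the excitatory class, and the others not tested had too few UMIs. Among the 27 13 rose and none fell, with a median log2 fold change of 1.43. Fat2, Cbln3, Svep1 and Ebf1 would not have passed the filter on low counts without the granule-type sums. This balance is therefore partly fixed by the filter. With DESeq2 10 of 26 were called higher and none lower, and without 3M-2 5 of 24 were higher, Fat2, Ebf1, Svep1, Neurod1 and Chn2. Those that rose in the test with 3M-2 and 6M-2 were Fat2, Cbln3, Neurod1, Etv1, Cadps2, Gabrd, Pax6, Chn2, Kcnc1, Nrep, Dpf3, Svep1 and Ebf1. Neurod1, a transcription factor that granule neurons need to survive, was at 68.5 CPM in 3M-2 and 79.4 CPM in 6M-2, against 4.45 and 3.03 CPM (log2 fold change 3.98 ± 0.67, SE). Pax6, which marks the granule lineage from its precursors on, was at 102 CPM in 3M-2 but had 1 UMI in 6M-2 (6.22 ± 0.93, SE). Chn2 was at 751 and 806 CPM, against 48.2 and 46.8 CPM, and at 687 and 671 CPM in microglia of the same libraries. Rbfox3, which encodes the neuronal protein NeuN, was at 630 and 431 CPM, against 524 and 476 CPM, and did not pass. Some further cerebellar genes were too rare to test. En2, a homeobox gene of the midbrain and cerebellum, had 15 UMIs in 15 nuclei of 3M-2, Cbln1 had 21 UMIs in 19 and Zic2 14 UMIs in 14, and En2 and Cbln1 had no UMI in the granule-type nuclei of the other 3 libraries.

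The list of forebrain excitatory genes moved the other way. Of 17 genes 16 were tested, 9 fell and none rose, with a median log2 fold change of -1.26. The calls were lost with DESeq2 and with 3M-2 left out, where none of the 16 passed, and with all 4 libraries 3 did, Cux2, Lmo3 and Camk2a. Among those that fell were Neurod6, Cux2, Rorb, Nrgn, Camk2a, Lmo3, Arpp21 and Mef2c. Summed over the list, the level was 1212, 2338, 4384 and 2701 CPM in the granule-type nuclei of the 4 libraries, against 4359, 4528, 4478 and 4238 CPM in excitatory nuclei. The granule-type nuclei of 6M-1 thus lay near the cortical level.

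**Figure D3:**
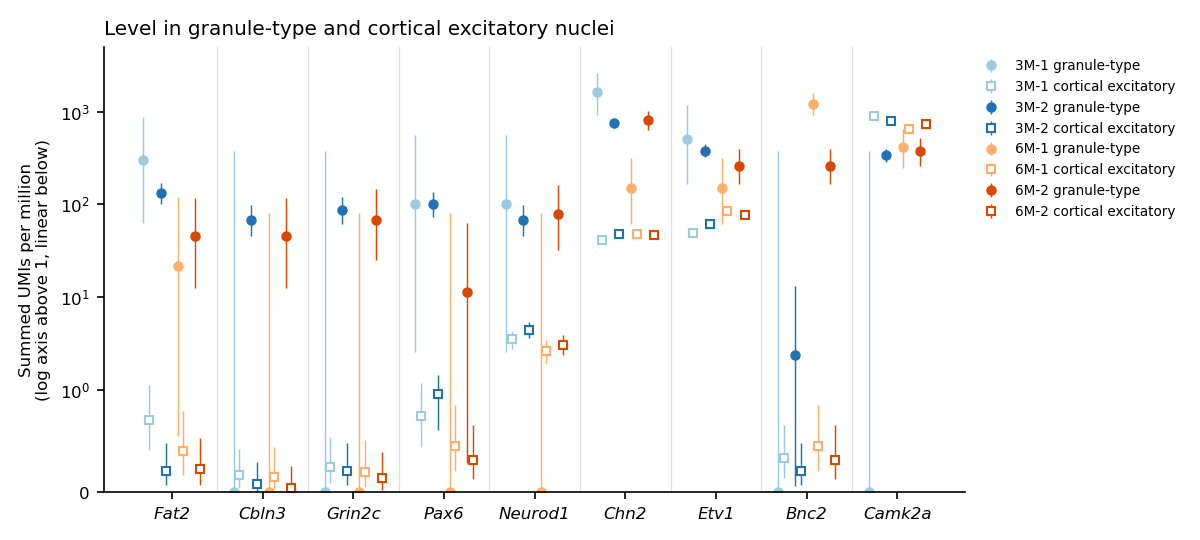
Summed UMIs in CPM of 9 genes in granule-type (filled circles) and cortical excitatory nuclei (open squares) of each library, on an axis that is logarithmic above 1 and linear below. Lines are 95% Poisson intervals. Fat2, Cbln3 and Grin2c were between 45.4 and 132 CPM in granule-type nuclei of 3M-2 and 6M-2 and below 1 CPM in excitatory nuclei, and Bnc2 was above 200 CPM only at 6 months.

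A small number of deep nuclei carried much of the cortical signal. In 3M-2, 19 granule-type nuclei with more than 5000 UMIs held 51.2% of the UMIs of all 135, and in 6M-2, 4 nuclei held 79.2%. The limit of 5000 UMIs was chosen after the data had been seen. In 3M-2 the forebrain list was at 1311 CPM in the 116 nuclei of at most 5000 UMIs and at 3316 CPM in the 19 deeper ones, and the 8 granule genes were at 2922 and 517 CPM. In 6M-2 the forebrain list was at 1584 and 2993 CPM and the 8 granule genes at 4533 and 530 CPM. In 6M-1 the forebrain list was at 3259 CPM in the 2 nuclei of at most 5000 UMIs and at 4620 CPM in the 2 deeper ones, and the 8 granule genes were at 0 and 394 CPM. The forebrain list was thus higher in the deeper nuclei of all 3 libraries, and the granule genes were lower there in 3M-2 and 6M-2 but not in 6M-1. In 3M-1 no nucleus had more than 5000 UMIs. Of the 19 deep nuclei of 3M-2, 5 were called doublets by Scrublet, and of the 116 others 6. In 6M-1 both nuclei of at most 5000 UMIs and neither of the deeper ones were called doublets. In 6M-2 1 of the 4 deeper nuclei and 0 of the 6 others were. Whether the deep nuclei hold RNA of more than 1 nucleus was not tested beyond this.

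In the nuclei of at most 5000 UMIs the cortical genes were lower still. Camk2a was at 72.6 CPM in 3M-2 and 109 CPM in 6M-2, where 3 UMIs stand for 164 CPM. Neurod6, Rorb and Tbr1 had no UMI in these nuclei of either library. Fat2 was at 261 CPM (196 to 341) in 3M-2, and at 9.22 CPM in the deep nuclei. In the fit with only these nuclei, with 6 nuclei in 6M-2, 649 genes passed (196 higher, 453 lower), 411 of them shared with the 615. Of the granule list 14 of 27 genes then rose and 1, Chrm3, fell, and of the forebrain list 7 of 16 fell.

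**Figure D4:**
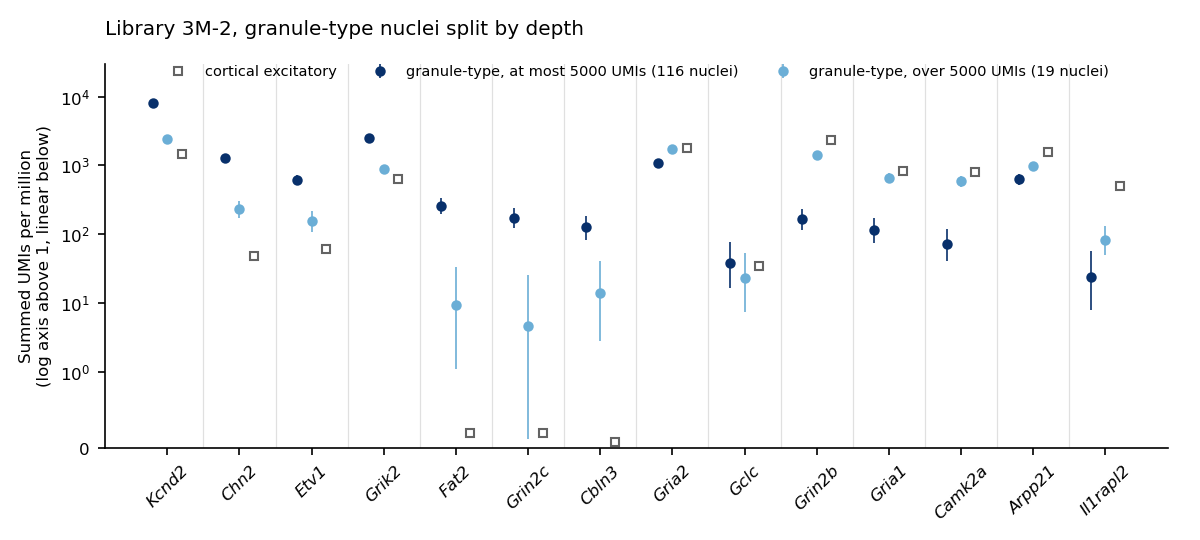
Levels of 14 genes in 3M-2 in granule-type nuclei of at most 5000 UMIs (116 nuclei, dark), in those of more than 5000 UMIs (19 nuclei, light) and in cortical excitatory nuclei (squares), in summed UMIs in CPM on an axis that is logarithmic above 1. Lines are 95% Poisson intervals. The deep nuclei lay between the shallow ones and the excitatory nuclei for Kcnd2, Chn2, Grin2b and Camk2a, and the intervals of Gclc overlapped in the 3 groups.

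Among the GABA-A receptor subunits, the genes for channels that mediate fast and tonic inhibition, Gabrd rose and 5 of 12 tested fell, among them Gabra2, Gabra3, Gabrb1 and Gabrg3. Gabrd was at 120 CPM in 3M-2 and 45.4 CPM in 6M-2, against 31.9 and 20.2 CPM in excitatory nuclei, with a log2 fold change of 1.52 ± 0.39 (SE, adjusted p = 0.00507). With 4 UMIs, the interval of the ratio in 6M-2 alone (0.610 to 5.80) included 1. Gabra2 was at 106 and 56.7 CPM, against 311 and 281 CPM, a ratio of 0.341 and 0.202. Gabrb2 was at 437 and 431 CPM, against 303 and 283 CPM, and did not pass. In the nuclei of at most 5000 UMIs of 3M-2, Gabra2 was at 19.4 CPM and Gabrb1 at 53.2 CPM, 16.1-fold and 12.3-fold below the excitatory level, while Gabrb2 was at 518 CPM and Gabrd at 174 CPM. Excitatory nuclei limited to the depth range of granule-type nuclei were still deeper, with medians of 6869 UMIs in 3M-2 and 11278.5 in 6M-2. With this limit Gabrb1, Gabrg3 and Gabra3 no longer passed, at log2 fold changes of -0.88, -0.80 and -1.37 against -0.96, -0.91 and -1.57 before. They were called lower in the fit of the shallow nuclei. With DESeq2 only Gabra2 passed, as lower, and without 3M-2 no subunit passed.

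Among the NMDA receptor subunits Grin2c rose and Grin2b fell, of 6 tested. Grin2c passed the filter on low counts only through the granule-type sums, so it could hardly have fallen. Grin2c was at 87.4 CPM (37 UMIs) in 3M-2 and 68.1 CPM (6 UMIs) in 6M-2, and had 5 and 3 UMIs in the excitatory sums, for a log2 fold change of 8.48 ± 1.02 (SE). Grin2b was at 793 and 1067 CPM, against 2302 and 2080 CPM (-1.53 ± 0.28, SE). In the nuclei of at most 5000 UMIs, Grin2b was at 165 and 164 CPM, the latter from 3 UMIs. Excitatory nuclei of at most 5000 UMIs had 1995 and 1725 CPM of Grin2b. Grin1, the obligatory subunit, was at 482 and 374 CPM, against 492 and 514 CPM, and did not pass. Grin2c and Grin2b were also called with DESeq2, and without 3M-2 no gene of the 5 then tested passed.

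Of the AMPA receptor genes 3 of 8 fell, Gria1, Gria3 and the auxiliary subunit gene Cacng3, and none rose. Gria1 was at 390 and 397 CPM, against 841 and 1039 CPM (-1.49 ± 0.29, SE). The decrease of Cacng3 came from 3M-2, since its log2 ratio was 0.03 in 6M-2 alone. Gria2 and Gria4 did not pass, and Gria4 was at 1053 and 704 CPM, against 667 and 749 CPM. With DESeq2 Gria1 alone was called. Of 7 kainate and delta receptor genes Grik2 rose, and Grik3, Grik5 and Grid1 fell, of which DESeq2 called Grid1. Grik2 was at 1681 and 1396 CPM, against 631 and 694 CPM, and at 2516 and 2512 CPM in the nuclei of at most 5000 UMIs. It passed (0.95 ± 0.27, SE, adjusted p = 0.0166) but not with DESeq2 or in the fit of the shallow nuclei, and its log2 fold change was -0.03 without 3M-2. Of the metabotropic receptors Grm3, Grm5, Grm7 and Grm8 fell and none of 6 tested rose. Grm5 was at 739 and 987 CPM, against 1508 and 1665 CPM, and at 116 CPM in the shallow nuclei of 3M-2. None of the 6 was called with DESeq2, and without 3M-2 no AMPA, kainate, delta or metabotropic receptor gene passed.

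Of 19 potassium channel genes 6 rose, among them Kcnk3, Kcnk10, Kcnc1, Kcnd2 and Kcnip1, and 7 fell, among them Kcnk2, Kcnb2, Kcnc2, Kcnh7, Kcnq3 and Kcnq5. Kcnd2 encodes Kv4.2, an A-type channel subunit, and was the most abundant gene of the set to rise. It had a UMI in all 135 granule-type nuclei of 3M-2 and was at 7575, 5115, 1107 and 2939 CPM in the 4 libraries, against 1550, 1487, 1875 and 1834 CPM in excitatory nuclei. In the nuclei of at most 5000 UMIs it was at 7945 CPM (7565 to 8338) in 3M-2 and 8629 CPM (7336 to 10084) in 6M-2. Its call (0.98 ± 0.28, SE, adjusted p = 0.0166) was lost without the library block and in the fit of the shallow nuclei (adjusted p = 0.405), and its log2 fold change was -0.07 without 3M-2. Kcnip1 had 48 UMIs in 5 nuclei of 3M-2, 30 of them in the nucleus with Purkinje cell genes, and 4 UMIs in 2 nuclei of 6M-2, and its log2 fold change was -0.10 in the shallow nuclei. With DESeq2 none of the 19 genes was called higher and 1 lower, and without 3M-2 none higher and 1 lower, Kcnc2.

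**Figure D5:**
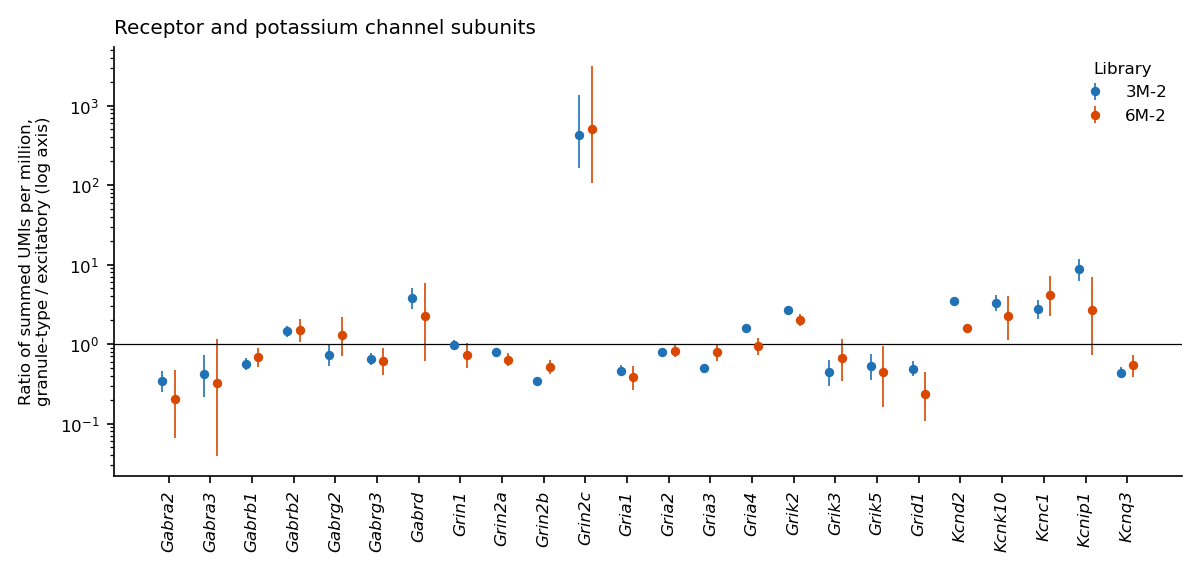
Ratio of summed UMIs in CPM in granule-type to cortical excitatory nuclei for receptor and potassium channel subunits in 3M-2 (blue) and 6M-2 (orange), on a log axis. Lines are 95% exact intervals for counting error, and the black line marks a ratio of 1. Grin2c stood at 421 and 501, while Gabra2, Grin2b, Gria1 and Grid1 were below 1 in both libraries.

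The Cre transgene that deletes Gclc is named after calcium/calmodulin-dependent kinase II (CaMKII), whose alpha subunit is encoded by Camk2a. Camk2a was at 0, 338, 412 and 374 CPM in the granule-type nuclei of the 4 libraries, against 890, 797, 650 and 742 CPM in excitatory nuclei. Of 7 CaM kinase genes Camk2a alone fell (-1.38 ± 0.29, SE, adjusted p = 1.66e-04). The call was lost with DESeq2 and without 3M-2. In the nuclei of at most 5000 UMIs of 3M-2 it was at 72.6 CPM (40.6 to 120), below the 169 CPM of oligodendrocytes and 136 CPM of microglia of that library. The part of free RNA in these levels was not tested. In the deep nuclei it was at 590 CPM. Gclc itself was at 0, 30.7, 65.1 and 136 CPM in granule-type nuclei and at 43.2, 34.2, 35.0 and 36.9 CPM in excitatory nuclei, from 0, 13, 3 and 12 UMIs in the former, and did not pass (0.48 ± 0.42, SE, adjusted p = 0.863). Of the 12 UMIs in 6M-2, 11 were in the 4 deep nuclei. With counting at the 3′ end and no wild-type library, these values do not measure the deletion. Of 21 glutathione genes 20 were tested, and of 10 integrated stress response genes 8, and no gene of either list passed in either direction. At an unadjusted p under 0.05 in edgeR's test, 1 glutathione gene (Slc1a1) and 0 stress response genes were counted, where 11.3% of all genes tested were (1794), and 0 of either list passed with DESeq2.

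Genes of other cells were present in the granule-type nuclei. The 7 oligodendrocyte genes other than Mog summed to 404, 380, 195 and 783 CPM in the 4 libraries, against 104, 114, 119 and 149 CPM in excitatory nuclei, and 3 of the 7 rose, among them St18 and Prr5l. St18 had 85 of the 161 UMIs in 3M-2, in 53 nuclei with at most 8 each, and was at 363 CPM in the shallow nuclei. Mbp had 26 UMIs there, 14 of them in a single nucleus of 5340 UMIs that also held 5 of the 6 of Prr5l. In 6M-2, 1 nucleus of 5431 UMIs held 9 of 10 UMIs of Prr5l, 14 of 17 of St18 and 12 of 22 of Mbp. The 5 microglial genes other than Csf1r summed to 0, 203, 86.8 and 68.1 CPM, against 69.4, 102, 134 and 108 CPM, with P2ry12 as the most abundant in 3M-2 (41 UMIs), and Inpp5d rose on 17 UMIs from 3 nuclei, but not with DESeq2. The 9 inhibitory genes other than Gad1 summed to 0, 191, 109 and 1634 CPM, against 74.7, 93.2, 94.8 and 81.3 CPM, and Adarb2 rose. All 128 UMIs of Adarb2 in 6M-2 were in 1 nucleus, and 36 of 43 in 3M-2 in another. Of the astrocyte genes Slc4a4, for a bicarbonate transporter, rose. It was at 371 and 318 CPM, against 60.7 and 54.1 CPM, in 90 of 135 and 8 of 10 nuclei, and did not pass without 3M-2, while Aqp4 and Gja1 were too rare to test. The part of other cells' RNA in these levels was not tested.

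Between the ages, the granule-type nuclei differed in genes carried by members without Gabra6. Only 1 library at each age had at least 10 granule-type nuclei, so the comparison was planned as values alone, and a fit of all 4 libraries with no minimum was added after the data had been seen. It called 0.924% of 1299 genes tested (12 genes), all higher at 6 months, in edgeR's quasi-likelihood test with 2 residual degrees of freedom and Benjamini-Hochberg adjustment. They were Adamtsl3, Slc26a7, Col25a1, Slc47a1, Bnc2, Eya2, Rspo3, Slit2, Fkbp5, Fbxl7, Dock5 and Mgp. On simulated counts of this comparison there were 11 false calls among 1024 genes tested, while 37 to 50 of each 50 genes changed were recovered. Many genes were changed by design in that simulation, so its number of false calls cannot be set beside the 12 calls made here. Col25a1, which encodes a transmembrane collagen, had 0, 8, 63 and 89 UMIs in the 4 libraries (0, 18.9, 1367 and 1010 CPM), so that both libraries at 6 months lay above both at 3 months. All 372 UMIs of the 12 genes in 6M-1 and 348 of the 353 in 6M-2 (98.6%) were in the 4 and 3 nuclei without Gabra6. With Gabra6 required, which leaves no nucleus in 6M-1, 1 gene was called, Adarb2, whose UMIs in 6M-2 were in 1 nucleus. With the batch number as a block no gene passed, with 62 at an unadjusted p under 0.05, while DESeq2 without the block called 11. Leaving out 6M-1 left 4 genes called, and leaving out 3M-2 gave 109.

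For granule genes the values of the better filled libraries were as follows. Between 3M-2 and 6M-2, Fat2 was at 132 and 45.4 CPM, Pax6 at 102 and 11.3 CPM, Nrep, which encodes a small neuronal protein, at 194 and 45.4 CPM, Chn2 at 751 and 806 CPM and Neurod1 at 68.5 and 79.4 CPM. In the nuclei of at most 5000 UMIs the same genes were at 261 and 164 CPM, 160 and 54.6 CPM, 344 and 109 CPM, 1297 and 3113 CPM, and 106 and 218 CPM. The levels of 6M-2 rest on 6 such nuclei, and for Fat2, Pax6 and Nrep on 3, 1 and 2 UMIs. The 3 nuclei of 6M-2 without Gabra6 held 44289 of its 88130 UMIs. In the nuclei with Gabra6 alone, Fat2 was at 133 CPM in 3M-2 and 91.2 CPM in 6M-2, from 4 UMIs in the latter. In the same nuclei Chn2 was at 727 and 1619 CPM, Neurod1 at 74.9 and 137 CPM, and Pax6 at 99.9 and 22.8 CPM.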

How the data were processed

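Single nuclei from the cortex of GCLC-KO mice were measured in 4 libraries by 10x 3′ RNA sequencing. The authors aligned reads to mm10 and counted UMIs per gene and nucleus with cellranger 7.0.0, per the file headers and labels; the deposited values are raw counts, with no correction for free RNA. Strand use in counting is not given in the sources used here. The filtered libraries held 63194878 (3M-1) and 62574289 (3M-2) UMIs at 3 months, and 65894316 (6M-1) and 59262228 (6M-2) at 6 months.

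Nuclei were kept and granule-type nuclei chosen by the rule given above. The members, gene lists and tests were chosen with earlier results of these data known. UMIs were summed per library and class, and tested with edgeR 4.0.16 in R 4.3.3 (TMM, quasi-likelihood, library as a block, low counts filtered, Benjamini-Hochberg adjustment), in the libraries with at least 10 granule-type nuclei. Both classes were taken from the same library, which pairs them. The 9 genes of the rule and Slc17a7 were left out of the test. The age comparison fell under the set minimum of 10 nuclei in at least 3 libraries and was planned as values, and a fit with no minimum was added after seeing the data. The labels' batch number pairs libraries across ages, but the deviations of same-numbered libraries from their age means had a correlation of -0.108 over 1299 genes. Intervals are 95% Wilson (shares), exact Poisson (CPM) or exact conditional binomial (ratios). Doublets were kept, and Scrublet calls (scanpy 1.11.5) were used as an alternative. Genes named beside the lists were the 10 highest and 10 lowest fold changes among genes that passed, had the same sign in both libraries and at least 50 CPM in the higher class. The fit was checked on simulated counts. Alternatives were DESeq2 1.42.0, other size factors, no filter, no block, other gates, other sets of libraries and nuclei of at most 5000 UMIs. A further one limited excitatory nuclei to the 5th to 95th percentile of granule-type depth. This did not match depth, since the excitatory medians stayed higher. Promoters came from RefSeq, which held 4 of the 5 genes of the rule. No column of another sample was present. Some genes of the lists are counted but not reported here by name.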

Additional observations from a re-analysis of the deposited data

Results flagged for a closer look

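Outside the rule, 13 nuclei of 3M-2 had at least 3 of the 5 genes and a UMI of Csf1r, against 1 in 3M-1, 0 in 6M-1 and 1 in 6M-2. They held 102173 UMIs, with 42 of Inpp5d and 109 of Adarb2 beside 9 of Fat2 and 37 of Chn2. Eomes, a transcription factor gene of unipolar brush cells and of cortical progenitors, had a UMI in 9 nuclei of 3M-2 that were not granule-type. Of these 9, 1 was also among the 13 with Csf1r. Outside the rule, Eomes was found in 2, 0 and 1 nuclei of 3M-1, 6M-1 and 6M-2. Both are signals in nuclei that the comparisons above do not use, and no wild-type level was analysed here.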

How the results depend on the processing

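The difference in share between ages ran from -1.45 to 0.0388 percentage points when 1 library was left out, and turned positive only without 3M-2. Against the 615 genes called (233 higher, 382 lower), DESeq2 called 165 (127 and 38). With no minimum of nuclei, which adds libraries, all 4 called 368 (130 lower), all but 6M-1 395 (147 lower), all but 3M-2 133 (105 and 28), nuclei with at least 3 of the 5 genes 251 (77 lower), nuclei with Gabra6 418 (179 lower) and doublets left out 453. Without the replicate block 812 were called, 359 of them higher. RLE size factors, no filter, excitatory nuclei limited to the same depth range and nuclei of at most 5000 UMIs gave 596, 676, 532 and 649. Of 80 listed or named genes called, 16 kept the call in every alternative that tested them, among them Fat2, Cbln3, Grin2c, Chn2, Pax6 and Neurod1. With DESeq2 32 kept it. Without 3M-2 12 kept it, and some of the 80, such as Grin2c, were not tested there. Log2 fold changes that turned were Adarb2 (-1.06 with at least 3 of the 5 genes and no minimum, -0.37 with these genes in 3M-2 alone), Kcnip1 (-0.10 in nuclei of at most 5000 UMIs), Col23a1 (0.31), Kcnd2 (-0.070) and Grik2 (-0.031) without 3M-2, and Cacng3, which ranged from -1.59 to 0.033 with 1 library left out. The cause was not tested. The fits with no minimum of nuclei and that of nuclei of at most 5000 UMIs were chosen after seeing the data. The stricter gates at 10 nuclei left 3M-2 alone and gave values with no test. Against 12 genes between the ages, the replicate block by batch and its crossed pairing each called 0, Gabra6 required 1, and leaving out 1 library 4 to 109. DESeq2, RLE size factors and no filter gave 11, 9 and 11. Depth limits 3M-1, 6M-1 and 6M-2, where 3 UMIs stand for 303, 65.1 and 34.0 CPM.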

Other observations

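Lists for other granule-type and related cells were also counted. Of 5 tested dentate granule genes Prox1 and Plk5 rose, of 5 olfactory bulb granule genes Synpr rose, and of 10 tested genes of other cerebellar cells Pcp2 rose, with 20 of its 22 UMIs in 3M-2 in the nucleus with Purkinje cell genes. Of 10 immediate early genes Junb fell, and of 3 tested genes of oligodendrocyte precursors Tnr fell. With DESeq2, Plk5, Synpr, Junb and Tnr were not called. Of 3 vascular genes and 2 hindbrain position genes tested, none passed.

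Eomes was found in 11 granule-type nuclei of 3M-2, with 1 UMI each, and in none of the other 3 libraries. Beside the granule-type nucleus with Purkinje cell genes, 2 nuclei of 3M-2 and 1 nucleus of 6M-1, of 9378 UMIs, had UMIs of both Car8 and Pcp2.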
